A study of Mus musculus with 15 samples.

Results

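Astrocytes are the star-shaped glia of the brain, and their RNA was followed here through 10 genes commonly used to mark them, in nuclei sorted from the mouse ventral tegmental area. The genes were Gja1, Aqp4, Slc1a2, Slc1a3, Gfap, Aldh1l1, Aldoc, Sox9, S100b and Slc4a4. They were taken by symbol from the deposited count table, which lists 35976 genes, and all 10 were found and passed the filter on low counts in both fits. Gene positions are given on GRCm38.

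All mice were male heterozygotes of the DAT-Cre line B6.SJL-Slc6a3tm1.1(cre)Bkmm/J, whose allele drives Cre recombinase from the dopamine transporter locus, and were 8 to 12 weeks old. Each received AAV5-DIO-KASH-HA in the ventral tegmental area, so that cells with Cre carry an HA tag on the nuclear envelope, and 14 days were left for expression. Food-trained mice (FT) were killed after 7 days of lever pressing for food. Maintenance mice (MN) had the same training and then worked 1 hour a day for intravenous cocaine, with infusions of 0.3 mg/kg on the first 5 days and of 1.0 mg/kg on the next 10. Abstinence mice (CRV, labelled craving) spent a further 21 days in the home cage without cocaine. Nuclei positive for HA and DAPI are called dopaminergic, and nuclei negative for HA and positive for DAPI non-dopaminergic. There were 4 dopaminergic samples at FT, 3 at MN and 4 at CRV, and 4 non-dopaminergic samples at FT, and tissue of 2 mice was pooled in each. No saline or untreated group and no non-dopaminergic nuclei at MN or CRV were analysed here, so the stage comparisons concern dopaminergic sorts alone, and cocaine, time and age cannot be told apart in them.

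Astrocytes clear glutamate and potassium from around synapses, move water and bicarbonate at their endfeet, supply metabolites and are coupled to each other by gap junctions. In the ventral tegmental area they surround dopamine neurons and shape the glutamate and GABA input that these neurons receive. Astrocytes do not normally make the dopamine transporter, so an HA-positive sort should hold few of their nuclei. A marker is a matter of degree, since several of the 10 genes are also transcribed at a lower level in neurons or in other glia.

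Total counts ranged from 25813697 to 59046618 per library. The sort was checked on marker lists. The summed level of 14 dopamine neuron genes was 9724 CPM (counts relative to the library total, after TMM scaling) in dopaminergic FT samples against 471 CPM in non-dopaminergic FT samples. The HA-negative samples are labelled non-dopaminergic neurons, yet 12 oligodendrocyte genes summed to between 9590 and 24590 CPM there, so glial RNA was present beside neuronal RNA. FT dopaminergic replicate 3 had the fewest counts and the fewest genes with a count (14841, against up to 19750 in other dopaminergic libraries), and its column is the one dopaminergic column absent from the authors' second table. It held the lowest value of its group for 6 of the 10 genes. The slope of log2 CPM on a gene's GC percent was between -0.0376 and -0.0224 in the 3 MN libraries, and between -0.0167 and 0.0204 in the other 8 dopaminergic libraries. It was -0.0248 in FT non-dopaminergic replicate 2 and between 0.0209 and 0.0322 in the other 3 of that group. GC slope and stage therefore moved together, and the part of GC content in the stage values is given by a corrected fit beside the results it touches.

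The promoter sequences of 4 genes are shown as examples of genes that differed between the sorts and genes that were not called. Slc1a3 and Gja1 had the lowest fold changes in dopaminergic nuclei, Gfap had one near 0 and Aldoc the highest. Sequences are from RefSeq on GRCm38.p6, written in the sense of the gene, with 250 bases before the start site and 30 after it, and for Aldoc the downstream of its 2 listed starts. Capitals mark a STAT site (TTCNNNGAA, a palindrome) and, in Slc1a3, TATAAA on the opposite strand.
Slc1a3, chr15:8710778-8711057, minus strand: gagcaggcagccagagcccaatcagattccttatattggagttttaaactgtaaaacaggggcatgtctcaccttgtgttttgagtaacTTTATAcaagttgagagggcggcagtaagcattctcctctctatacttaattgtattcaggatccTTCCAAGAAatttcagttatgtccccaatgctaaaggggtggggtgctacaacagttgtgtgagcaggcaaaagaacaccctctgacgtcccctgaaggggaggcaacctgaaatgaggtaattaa
Gja1, chr10:56377050-56377329, plus strand: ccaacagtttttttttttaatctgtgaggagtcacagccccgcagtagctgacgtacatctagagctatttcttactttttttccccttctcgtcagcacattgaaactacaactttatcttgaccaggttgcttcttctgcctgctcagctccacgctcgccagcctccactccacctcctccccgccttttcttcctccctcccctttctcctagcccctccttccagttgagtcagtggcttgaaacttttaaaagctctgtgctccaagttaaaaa
Gfap, chr11:102897171-102897450, minus strand: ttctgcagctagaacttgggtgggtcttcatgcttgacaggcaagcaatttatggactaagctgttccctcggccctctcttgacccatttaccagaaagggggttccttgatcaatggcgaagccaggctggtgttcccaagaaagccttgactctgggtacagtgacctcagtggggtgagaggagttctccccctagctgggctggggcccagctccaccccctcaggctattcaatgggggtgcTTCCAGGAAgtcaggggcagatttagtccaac
Aldoc, chr11:78323948-78324227, plus strand: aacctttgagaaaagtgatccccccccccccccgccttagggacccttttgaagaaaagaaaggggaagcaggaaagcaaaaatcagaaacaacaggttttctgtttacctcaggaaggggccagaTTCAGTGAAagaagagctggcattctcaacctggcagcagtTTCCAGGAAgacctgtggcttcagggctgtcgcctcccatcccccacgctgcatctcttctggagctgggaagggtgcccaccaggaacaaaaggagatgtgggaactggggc
STAT factors are the signal-dependent activators that act on Gfap when astrocytes form from progenitors. The STAT letters occurred in 3 of the 10 promoter windows of 300 bases listed for the 10 genes, in Slc1a3, Gfap and the downstream Aldoc start, which holds 2 matches, against 8.3% of 32851 promoter windows of that length. They were found in Slc1a3, which was lower in dopaminergic nuclei, and in Gfap and Aldoc, which were not called lower. The windows of Gja1, which was lower, and of Aldh1l1, which was not called and had a fold change close to that of Aldoc, held none of the letters searched. The NFI letters TTGGC was found on either strand in 5 of the 10 windows, against 46.7% of all windows. The SOX cores ACAATG (12.6% of all windows) and ACAAAG (18.7%) and the NFI palindrome (0.0365%) were found in 0 of the 10, and TATAAA in 1 of the 10, against 13.6%. Aqp4 and Sox9 were not among the sequences used here.

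The first comparison asked how far the sort for HA depleted astrocyte RNA, in food-trained mice. Of the 10 genes, 4 were lower in dopaminergic nuclei (Slc1a3, Gja1, Slc4a4 and Sox9) and 0 were higher by edgeR's quasi-likelihood test at an adjusted p under 0.05, where 9.17% of 19786 tested genes were lower and 3.63% higher. That balance over all genes, 1815 lower and 719 higher, turned to 727 lower and 916 higher with at least 10 counts required in every library and to 362 lower and 413 higher with replicate numbers as a block. DESeq2 also called 4 lower and 0 higher, with 19.6% of all genes called in either direction, and 5 of the 10 had an unadjusted p under 0.05, against 24.3% of all genes. In 5 of the 10 (these 4 and Aqp4) all dopaminergic libraries lay below all non-dopaminergic ones, against 19.1% of all genes. The other 6 split into Aqp4, with a low mean and a wide spread, Slc1a2, with a small difference, and Gfap, S100b, Aldh1l1 and Aldoc, whose mean level was the same or higher in dopaminergic nuclei. The median log2 fold change of the 10 was -0.73, against -0.21 over all genes tested. In these bulk samples, fewer astrocyte nuclei and less RNA per nucleus cannot be told apart.

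**Figure D1:**
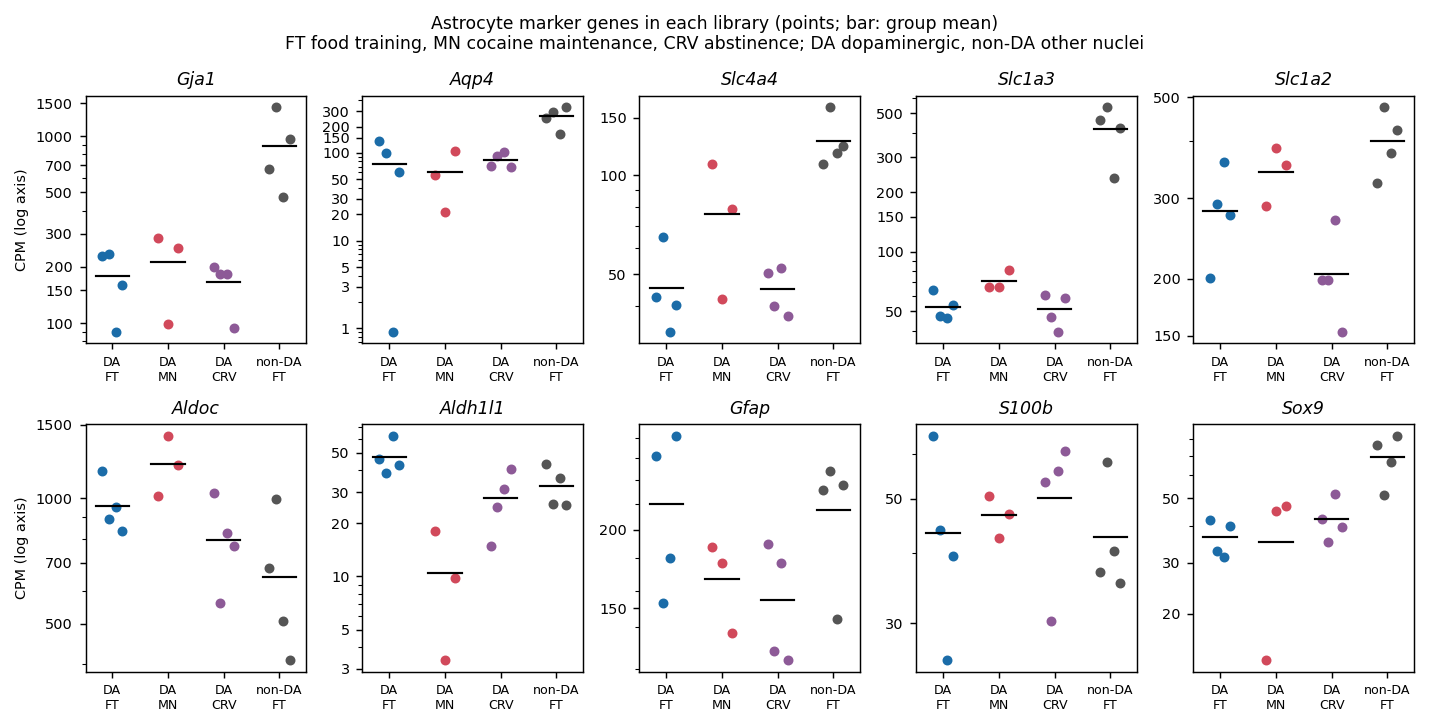
CPM of each astrocyte marker gene on a log axis, 1 point per library in order of replicate number, with a bar at the group mean. Gja1, Slc1a3, Slc4a4, Sox9 and Aqp4 do not overlap between the food-trained sorts, the Aqp4 axis reaches down to 0.918 CPM in food-trained dopaminergic replicate 3, and the 3 maintenance libraries lie below all food-trained libraries of either sort in Aldh1l1.

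Slc1a3 (chromosome 15, 8634124 to 8710764, minus strand) encodes GLAST, a glutamate transporter of astrocytes and radial glia. Its level was 63.98, 47.45, 46.29 and 53.80 CPM in dopaminergic FT replicates 1 to 4 and 465.4, 539.6, 234.6 and 423.4 CPM in non-dopaminergic replicates 1 to 4. The lowest non-dopaminergic library was well above the highest dopaminergic one. Slc1a3 was 7.97-fold lower in dopaminergic nuclei (log2 fold change -3.00, SE 0.28, edgeR adjusted p = 0.00135).

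Slc1a2 (chromosome 2, 102658659 to 102790784, plus strand) encodes GLT-1, the main glutamate transporter of the adult forebrain, and is also transcribed by some neurons. It was at 200.4, 291.2, 360.8 and 275.9 CPM in dopaminergic FT replicates 1 to 4 and at 324.2, 476.2, 376.8 and 423.7 CPM in the non-dopaminergic ones. The groups overlapped through dopaminergic replicate 3. Its log2 fold change was -0.53 (SE 0.22, edgeR adjusted p = 0.176), with a 95% interval from -1.02 to -0.03.

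These 2 transporters are close relatives with the same substrate, and their ratio within a library does not depend on how libraries are scaled. There were 3.13, 6.14, 7.80 and 5.13 counts of Slc1a2 for each count of Slc1a3 in dopaminergic FT replicates 1 to 4. In non-dopaminergic replicates 1 to 4 the ratio was 0.697, 0.883, 1.61 and 1.00. The groups did not overlap, and MN and CRV dopaminergic libraries, between 2.61 and 6.80, also lay above all 4 non-dopaminergic ones. The ratio was chosen after its values were seen and was not tested.

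Gja1 (chromosome 10, 56377330 to 56402513, plus strand) encodes connexin 43, the main gap junction protein of astrocytes. It was at 228.9, 235.8, 90.19 and 160.7 CPM in dopaminergic FT replicates 1 to 4, and at 665.7, 1433, 473.6 and 963.9 CPM in the non-dopaminergic ones. The groups did not overlap, and replicate 3 was the lowest in each sort. Gja1 was 5.01-fold lower in dopaminergic nuclei (log2 fold change -2.33, SE 0.42, edgeR adjusted p = 0.0067).

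Aqp4 (chromosome 18, 15389496 to 15410982, minus strand) encodes the water channel of astrocyte endfeet. It was at 136.9, 100.3, 0.918 and 60.12 CPM in dopaminergic FT replicates 1 to 4, where the value of replicate 3 rests on 25 counts, and at 252.7, 292.2, 164.6 and 335.7 CPM in the non-dopaminergic ones. The groups did not overlap, but the dopaminergic values spread over 149-fold. The log2 fold change of -1.83 (SE 0.96) had an edgeR adjusted p of 0.292. Without replicate 3 it was -1.40 with an adjusted p of 0.0257, and over the 17 alternatives run the adjusted p ranged from 0.0257 to 0.458.

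Slc4a4 (chromosome 5, 88886818 to 89239653, plus strand) encodes a sodium bicarbonate cotransporter that moves base across the astrocyte membrane. It was at 42.46, 65.04, 33.37 and 40.26 CPM in dopaminergic FT replicates 1 to 4, and at 108.2, 161.7, 117.2 and 122.9 CPM in the non-dopaminergic ones. The groups did not overlap. It was 2.86-fold lower in dopaminergic nuclei (log2 fold change -1.52, SE 0.25, edgeR adjusted p = 0.0067).

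Sox9 (chromosome 11, 112782224 to 112787760, plus strand) encodes a transcription factor of the astrocyte lineage, and in the adult brain its protein is largely restricted to astrocytes and ependymal cells. It was at 42.16, 32.93, 31.42 and 39.97 CPM in dopaminergic FT replicates 1 to 4, and at 76.41, 51.35, 66.79 and 82.00 CPM in the non-dopaminergic ones. The groups did not overlap. Sox9 was 1.92-fold lower in dopaminergic nuclei (log2 fold change -0.94, SE 0.22, edgeR adjusted p = 0.0221), a call that 6 of 17 alternatives did not keep, with adjusted p between 0.00149 and 0.0899. It was lost without non-dopaminergic replicate 1 (0.0899), 3 (0.0613) or 4 (0.0748). The call was also lost with replicate numbers as a block (0.0766), with that block and GC correction (0.0732) and in a fit of all 15 libraries (0.08).

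Gfap (chromosome 11, 102887336 to 102900912, minus strand), the intermediate filament gene that rises in reactive astrocytes, was at 262.2, 152.7, 180.2 and 282.2 CPM in dopaminergic FT replicates 1 to 4 and at 230.9, 248.1, 144.4 and 235.9 CPM in the non-dopaminergic ones. The ranges of the 2 sorts covered each other. Its log2 fold change was 0.01 (SE 0.26, edgeR adjusted p = 0.99), with a 95% interval from -0.58 to 0.60. That interval lay above those of Slc1a3, Gja1 and Slc4a4, and overlapped that of Sox9 (-1.44 to -0.44). Differences between genes were not tested.

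S100b (chromosome 10, 76253853 to 76261159, plus strand) encodes a calcium-binding protein that oligodendrocyte lineage cells also make. It was at 64.68, 44.01, 25.77 and 39.45 CPM in dopaminergic FT replicates 1 to 4 and at 36.99, 57.96, 40.28 and 35.41 CPM in the non-dopaminergic ones. The groups overlapped, with a log2 fold change under 0.01 in size (0.005, SE 0.31, edgeR adjusted p = 0.996) and a 95% interval from -0.70 to 0.71.

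Aldoc (chromosome 11, 78322968 to 78327781, plus strand) encodes aldolase C, a brain form of the glycolytic enzyme. It was the most abundant of the 10 genes per kilobase of its longest transcript in every group. It was at 1160, 890.5, 950.2 and 836.7 CPM in dopaminergic FT replicates 1 to 4 and at 679.8, 993.4, 507.8 and 408.4 CPM in the non-dopaminergic ones. The groups overlapped through non-dopaminergic replicate 2, and the log2 fold change was 0.55 (SE 0.29, edgeR adjusted p = 0.292).

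Aldh1l1 (chromosome 6, 90486427 to 90600203, plus strand) encodes a folate enzyme widely used to label astrocytes throughout the brain. It was at 46.15, 38.66, 62.66 and 42.56 CPM in dopaminergic FT replicates 1 to 4 and at 43.19, 25.59, 36.18 and 25.41 CPM in the non-dopaminergic ones. The groups overlapped, and the log2 fold change was 0.52 (SE 0.27, edgeR adjusted p = 0.295). Neither enzyme gene was called in either direction.

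**Figure D2:**
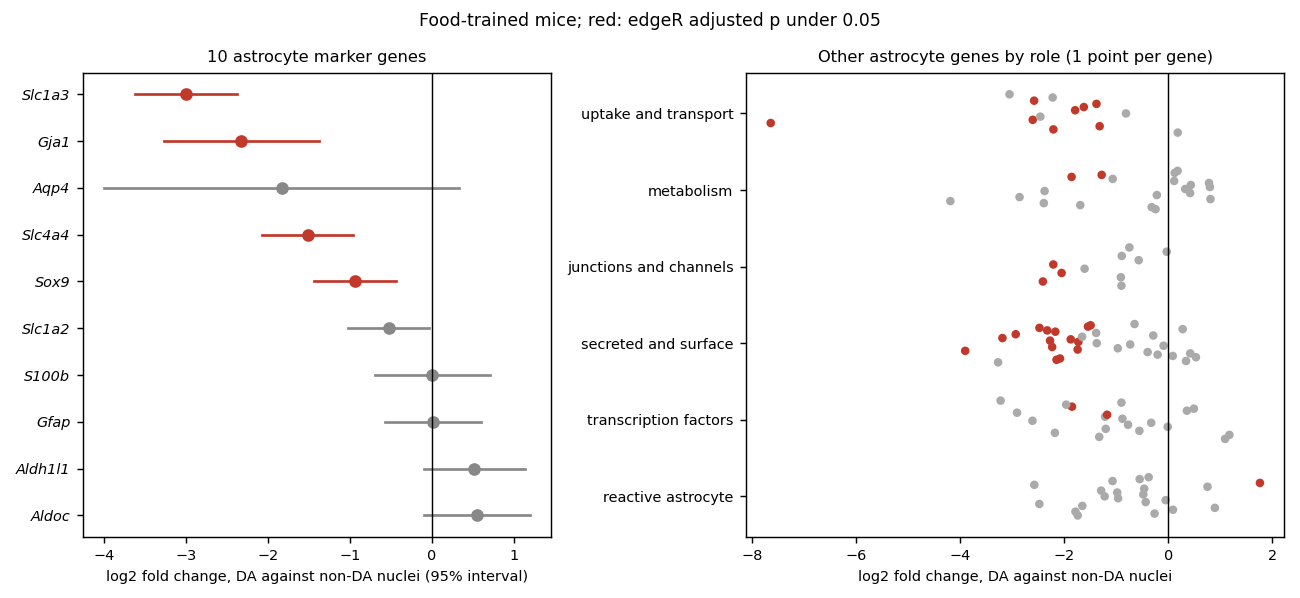
Log2 fold change of dopaminergic against non-dopaminergic nuclei in food-trained mice (4 libraries each), with 95% intervals for the 10 marker genes (left) and 1 point per gene for the other astrocyte genes by role (right), red where the edgeR adjusted p is under 0.05. The 4 called marker genes run from -3.00 to -0.94, and 5 genes with 0 counts in all dopaminergic food-trained libraries are left out on the right.

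The order of the 10 genes differed between the sorts. Per kilobase, the non-dopaminergic order began with Aldoc (232.4 CPM per kilobase), Gja1 (227.3), Slc1a3 (93.74) and Gfap (81.13), where Aldoc and Gja1 did not differ beyond their spread (SD 92.1 and 107). The dopaminergic FT order began with Aldoc (344.4), Gfap (82.83), Gja1 (46.0) and S100b (29.3), and Slc1a3 stood in place 7 at 11.92. These levels use the length of the longest annotated transcript and compare genes only roughly.

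A further 96 astrocyte genes, grouped by role, were set beside the 10. Of these, 95 were tested, 31 were lower in dopaminergic nuclei and 0 higher by edgeR's test, with a median log2 fold change of -1.32. DESeq2 called 36 lower and 3 higher, of which 2 lower and 2 higher were metabolism genes, and with at least 10 counts required in every library 29 of 69 were lower and 1 higher. The number lower was between 20 and 34 when 1 library was left out, and was 20 without non-dopaminergic replicate 1 or 4. By role, 8 of 13 uptake and transport genes, 2 of 20 tested metabolism genes, 3 of 10 junction and channel genes, 15 of 31 secreted and surface genes and 3 of 21 transcription factors were lower, beside 9.17% of all genes. Gli2, 1 of these transcription factors and named after its values were seen, had 0 counts in all 4 dopaminergic FT libraries and so passed the filter on low counts only through the non-dopaminergic ones. With at least 10 counts required in every library, 2 of 11 transcription factors were lower and 1 higher. Without 1 library, these counts ranged from 5 to 8, 1 to 3, 3 to 5, 10 to 16 and 1 to 4. They fell by more than 1.5 times without non-dopaminergic replicate 1 or 4 for uptake (5), without any 1 non-dopaminergic library for metabolism (1), and without non-dopaminergic replicate 1, 3 or 4 for transcription factors (1). The junction count was 5 without dopaminergic replicate 1, and with replicate numbers as a block the count of transcription factors was 0. Median log2 fold changes were -2.21, -0.24, -0.91, -1.55 and -1.18 in that order, so that the metabolism genes had the median closest to that of all genes. With at least 10 counts required in every library their median was 0.14.

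Among the further genes with the lowest p, 7 are given here, each lower in all 4 dopaminergic libraries than in any non-dopaminergic one. Ntsr2, a neurotensin receptor, was at 54.5 ± 7.67 against 270.3 ± 90.1 CPM (SD, n = 4 each). Its log2 fold change was -2.33 (SE 0.26, edgeR adjusted p = 0.00258). That of Hepacam, an adhesion protein that anchors connexins and chloride channels at cell contacts, was -2.05. Megf10, an engulfment receptor, stood at -2.94, and Slc7a10, an amino acid exchanger for glycine and D-serine, at -2.58. Agt, the angiotensin precursor, Plpp3, a lipid phosphatase, and F3, tissue factor, stood at -2.15, -1.86 and -1.75, with edgeR adjusted p between 0.00322 and 0.0067 for the 6 other than Ntsr2.

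Of 25 genes reported to rise in reactive astrocytes, 4 were lower and 1 higher in dopaminergic nuclei by edgeR's test, beside 9.17% lower and 3.63% higher over all genes. The 4, named after their values were seen, had 0 counts in all 4 dopaminergic FT libraries, so they passed the filter on low counts only through the non-dopaminergic libraries, and their count is no support for a lower level of the list. With at least 10 counts required in every library, 6 of the 25 were tested and 0 were lower. Against a floor of 3 counts per library, Osmr (a cytokine receptor) was at least 73.9-fold, C3 (a complement protein) at least 58.9-fold, Lcn2 (a lipocalin) at least 19.6-fold and Ptx3 (a pentraxin) at least 4.45-fold lower. All 4 are low genes, at 0.35 to 5.81 CPM in non-dopaminergic nuclei, and several are made by microglia or vascular cells as well. Thbs1, a secreted thrombospondin, was higher at 29.1 ± 13.9 against 8.47 ± 2.79 CPM (SD, n = 4 each; log2 fold change 1.76, SE 0.45, edgeR adjusted p = 0.0309). It was not called without non-dopaminergic replicate 1, 2 or 3, in a fit of all 15 libraries or with replicate numbers as a block. The count of 5 fell to 0 with replicate numbers as a block, to 1 with at least 10 counts required in every library and to 2 in a fit of all 15 libraries, and rose to 8 without dopaminergic replicate 4.

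As a share of the non-dopaminergic mean, the summed level of the 10 genes was 57.6 to 72.6% in dopaminergic FT libraries. Aldoc was the largest term of that sum in dopaminergic FT libraries (mean 959.4 of 1940 CPM). Without it, a choice made after its values were seen, the other 9 summed to 34.0 to 44.4%, beside 32.9 to 50.9% for the 96 further astrocyte genes. The same share was 11.4 to 17.8% for oligodendrocyte genes, 10.8 to 22.4% for oligodendrocyte precursor genes, 23.1 to 44.6% for microglia genes and 3.21 to 61.1% for vascular genes, where replicate 4 was alone above 6.30%. The 12 oligodendrocyte genes were thus lower in share than the 9 astrocyte genes in each of the 4 libraries. Single astrocyte genes ranged more widely than these sums, from 12.7% for Slc1a3 to 148% for Aldoc as group means. Whether residual glial nuclei, RNA carried over in the sort or transcription in dopamine neurons gave the astrocyte counts of the dopaminergic libraries was not tested.

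**Figure D3:**
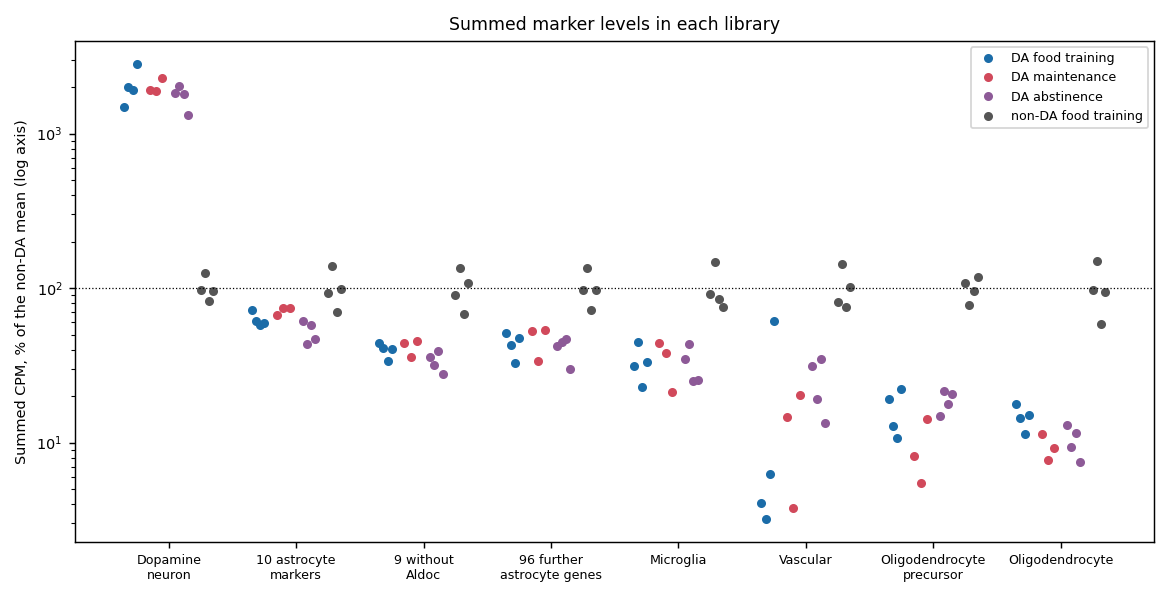
Summed CPM of marker lists in each library as a percentage of the mean of the 4 food-trained non-dopaminergic libraries (dotted line at 100, log axis). In dopaminergic libraries the dopamine neuron genes lie at 1324% or above, the 9 astrocyte markers without Aldoc between 27.7 and 45.5%, and the oligodendrocyte genes between 7.47 and 17.8%.

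The stage comparisons asked whether astrocyte RNA in the dopaminergic sorts changed with cocaine taking and abstinence. By edgeR's test, 0 of the 10 genes were called at MN against FT, at CRV against FT or at CRV against MN. The genes called among all 19060 tested were few in each, at 0.131%, 0% and 0.178%. At an unadjusted p under 0.05 there were 2, 0 and 4 of the 10 genes, where 11.6%, 4.3% and 9.92% of all genes passed. DESeq2 called 1, 0 and 0 of the 10, and 5.13%, 0.735% and 4.16% of all genes. The comparisons share libraries, so they are not independent of each other. The 10 genes summed to between 2088 and 2315 CPM at MN, 1782 and 2248 at FT, and 1340 and 1907 at CRV, so that all 3 MN libraries lay above all 4 CRV libraries. Without Aldoc the sums overlapped, at 883.1 to 1114 CPM at MN and 677.7 to 963 CPM at CRV, as did those of the 96 further genes, at 7114 to 11190 and 6344 to 9898 CPM.

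Aldh1l1 had the widest stage difference of the 10. It was at 18.10, 3.35 and 9.83 CPM in MN replicates 1 to 3 (877, 111 and 404 counts) and at 14.91, 24.76, 31.21 and 40.60 CPM in CRV replicates 1 to 4, beside 38.66 to 62.66 CPM at FT. All 3 MN libraries lay below all 4 FT libraries, and CRV overlapped both. The log2 fold change at MN against FT was -2.18 (SE 0.55, unadjusted p = 0.00155), and edgeR's adjusted p was 0.162. DESeq2 called it (adjusted p = 0.0024), and over 17 alternatives the log2 fold change lay between -2.85 and -1.63 and the adjusted p between 0.0024 and 0.586. At CRV it was 0.77 lower than FT on the log2 scale (log2 fold change -0.77, edgeR adjusted p = 1) and 1.41 higher than MN (SE 0.53, unadjusted p = 0.0197, adjusted p = 0.442).

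Slc1a3 was at 66.47, 66.80 and 80.89 CPM at MN and at 60.19, 46.97, 39.52 and 58.54 CPM at CRV. All 3 MN libraries were above all dopaminergic FT and all CRV libraries, by a small margin over FT, whose highest value was 63.98 CPM. The log2 fold change was 0.43 at MN against FT (SE 0.26, edgeR adjusted p = 0.568) and -0.48 at CRV against MN (SE 0.26, adjusted p = 0.585). At MN it remained at 17.2% of the non-dopaminergic mean.

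Slc1a2 was at 288.7, 385.9 and 355.4 CPM at MN and at 198.5, 198.6, 268.8 and 153.0 CPM at CRV. The MN libraries lay above all 4 CRV libraries and overlapped FT. CRV against MN gave a log2 fold change of -0.75 (SE 0.26, unadjusted p = 0.0126, edgeR adjusted p = 0.405), and CRV against FT one of -0.46 (adjusted p = 1). Both transporters were thus higher in each MN library than in each CRV library, and groups of 2 of the 10 genes did not overlap there, against 12.1% of all genes. At MN against FT it was also 2 of the 10 (Slc1a3 higher, Aldh1l1 lower), against 8.49%, and at CRV against FT 0 of the 10, against 3.32%.

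Slc4a4 was at 107.9, 41.95 and 78.70 CPM at MN and at 50.39, 40.04, 52.03 and 37.20 CPM at CRV. MN replicates 1 and 3 were above all dopaminergic FT and CRV libraries, and replicate 2 was among them. Its log2 fold change was 0.75 at MN against FT (SE 0.34, unadjusted p = 0.0468, edgeR adjusted p = 0.421) and -0.77 at CRV against MN (unadjusted p = 0.0439, adjusted p = 0.495).

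Aldoc was at 1014, 1413 and 1201 CPM at MN and at 1027, 560.9, 825.9 and 766.4 CPM at CRV. Only CRV replicate 1 reached the range of MN, just above MN replicate 1. CRV against MN gave a log2 fold change of -0.60 (SE 0.25, unadjusted p = 0.0327, edgeR adjusted p = 0.486), and MN against FT one of 0.33 (adjusted p = 0.736).

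Gfap was at 187.6, 176.7 and 137.2 CPM at MN and at 189.9, 128.1, 177.2 and 123.9 CPM at CRV. These ranges overlapped each other and that of FT (152.7 to 282.2 CPM). The log2 fold change against FT was -0.39 at MN (SE 0.28, edgeR adjusted p = 0.692) and -0.50 at CRV (SE 0.26, adjusted p = 1). The 95% interval at CRV ran from -1.05 to 0.05.

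Gja1 was at 285.4, 99.37 and 253.8 CPM at MN and at 199.3, 183.7, 183.5 and 94.23 CPM at CRV. The 3 stages overlapped, each with 1 library near 90 to 100 CPM. Log2 fold changes were 0.26 at MN and -0.12 at CRV against FT, with edgeR adjusted p of 0.937 and 1. Aqp4 was at 55.51, 21.32 and 104.9 CPM at MN and at 71.14, 91.64, 103.3 and 69.55 CPM at CRV, with log2 fold changes of -0.29 and 0.17 against FT. Its 95% interval at MN ran from -2.23 to 1.65, the widest of the 10, so these samples say little about it.

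Sox9 was at 13.81, 45.21 and 46.77 CPM at MN and at 42.21, 35.36, 51.56 and 39.88 CPM at CRV. MN replicate 1 was the lowest of all 15 libraries, and the other MN libraries were above every dopaminergic FT value. S100b was at 50.57, 42.55 and 46.96 CPM at MN and at 53.52, 30.23, 55.95 and 60.82 CPM at CRV, all within the dopaminergic FT range. Their log2 fold changes against FT were -0.05 and 0.10 at MN, and 0.21 and 0.21 at CRV, with edgeR adjusted p of at least 0.984.

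**Figure D4:**
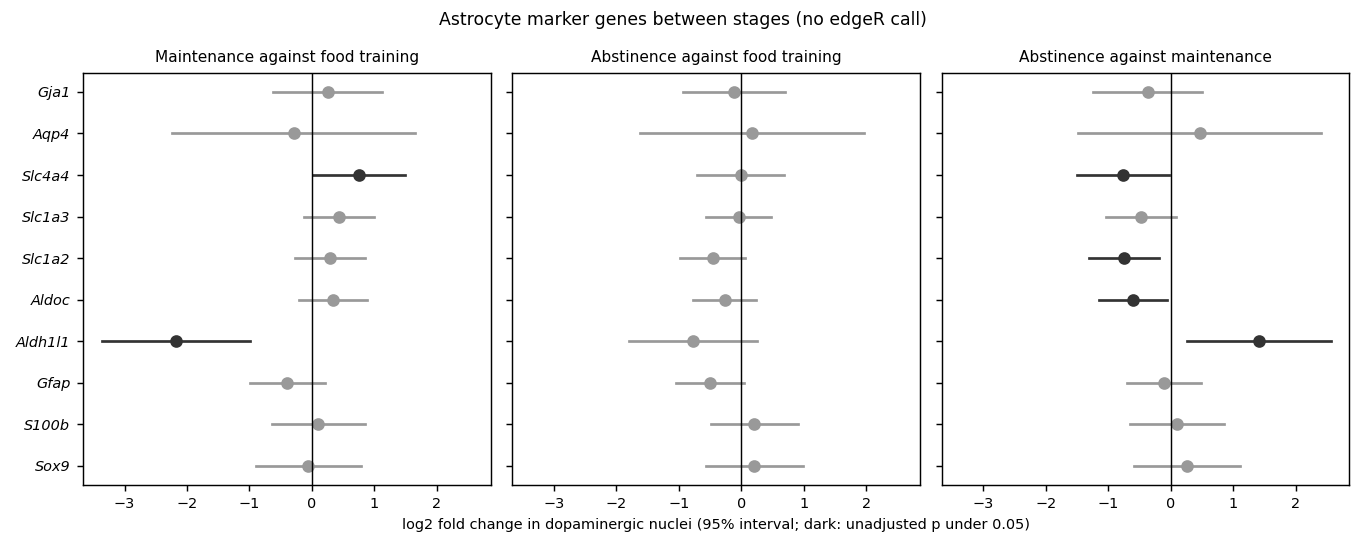
Log2 fold change of each marker gene between stages in dopaminergic nuclei, with 95% intervals from the edgeR fit of 11 libraries, dark where the unadjusted p is under 0.05. Aldh1l1 at maintenance against food training (-2.18) is the farthest from 0, and no gene passes the adjusted threshold in any panel.

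With each library's GC slope corrected, edgeR again called 0 of the 10 genes in each stage comparison. Aldh1l1 then had a log2 fold change of -1.98 at MN against FT (edgeR adjusted p = 0.271) and Slc1a3 one of 0.32 (adjusted p = 0.778). Oligodendrocyte genes summed to between 7.69 and 11.4% of the non-dopaminergic mean at MN, 11.4 and 17.8% at FT and 7.47 and 12.9% at CRV, so that both later stages stood lower than FT, apart from small overlaps. The part of other glia in the stage values was not tested.

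Of the 96 further astrocyte genes, 94 were tested between stages and 0 were called by edgeR in each comparison. At MN against FT, 16 of the 94 had an unadjusted p under 0.05, beside 11.6% of all genes. DESeq2 called 8, all lower, beside 5.13% of all genes, where 741 of its 977 calls were lower. At CRV against FT there were 2 at an unadjusted p under 0.05, beside 4.3%, and DESeq2 called 0, beside 0.735%. At CRV against MN there were 10, beside 9.92%. DESeq2 called 3 there, all higher, beside 4.16% of all genes, where 677 of its 793 calls were higher. The median log2 fold changes were -0.12, -0.18 and 0.07, beside -0.01, 0.04 and 0.05 over all genes. Without MN replicate 2, 95 of the 96 genes were tested, and edgeR called 2 lower at MN against FT and 2 higher at CRV against MN. Of the 25 reactive genes, 19 were tested, and edgeR called 0 in each comparison. An unadjusted p under 0.05 was found for 3, 3 and 1 of the 19, beside 11.6%, 4.3% and 9.92% of all genes. DESeq2 called 1, 0 and 1, beside 5.13%, 0.735% and 4.16% of all genes.

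The genes of these lists with the lowest p at MN against FT were Etv5, a transcription factor of the ETS family, at 29.8 ± 8.33 CPM (SD, n = 3) against 86.9 ± 45.5 (n = 4), Lrig1, a growth factor receptor antagonist, F3 and Pygb, brain glycogen phosphorylase. Their log2 fold changes were -1.55, -1.64, -1.01 and -1.10, with edgeR adjusted p between 0.182 and 0.305. At CRV against FT they were Mt1, a metallothionein, Cxcl10, a chemokine with 0 counts in all CRV libraries, Sphk1, a lipid kinase, and Lrig1, with log2 fold changes of -0.89 for Mt1, 1.97 for Sphk1 and -0.90 for Lrig1 and edgeR adjusted p of 1. At CRV against MN, Grin2c, an NMDA receptor subunit gene of these lists, was at 34.1 ± 11.3 CPM (SD, n = 4) against 5.76 ± 3.83 (n = 3). Its log2 fold change was 2.57, with an edgeR adjusted p of 0.151. Slc6a9 and Slc6a11, transporters of glycine and GABA, had log2 fold changes of 1.22 and 1.17 there, with adjusted p of 0.283 and 0.356, and Etv4 had 0 counts in all MN libraries.

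The genes whose levels followed the mean of the 10 most closely were ranked by Pearson r of log2 CPM, as a description. Over 15 libraries, which differ first of all by sort, the highest of 12995 genes included Apoe (0.942), Stmn4, Sypl, Cmtm5, Gjb6, Cryab and Ptn (0.885). Apoe and Gjb6 are on the astrocyte lists. Over the 11 dopaminergic libraries alone they were C1qbp (0.87), Stmn4, Nhp2, Cmtm5, Rnf157, Cisd1, Hmgb1 and Apoe (0.836). The 10 did not move as 1 set. Over 15 libraries, r with the mean of the other 9 was 0.868 for Gja1 and 0.798 for Slc1a3, and -0.088 for Aldh1l1 and -0.362 for Aldoc. Over the 11 dopaminergic libraries it was 0.529, 0.361, -0.448 and 0.428 in that order, so that the sign for Aldoc differed.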

How the data were processed

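RNA was sequenced from sorted nuclei in 15 samples, assigned to 4 groups by their titles. The authors deposited whole-number counts per gene, without molecular identifiers. Per the submitters' processing notes, the builds mm10 and GRCm38 and the tools Trim Galore 0.6.7, cutadapt 1.18, STAR 2.7.10a, StringTie 2.1.5 and DESeq2 1.38.3 were used. Their roles, the annotation and strand use are not given in the sources used here, so reads of overlapping genes cannot be told apart. A second deposited table held the same counts for 10 dopaminergic samples (0 cells differed) and was used for that check alone.

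Tests were run on the counts with edgeR 4.0.16 in R 4.3.3 (filterByExpr, TMM scaling, quasi-likelihood F-test, two-sided, Benjamini-Hochberg adjusted p under 0.05 over all genes tested), which gave every adjusted p not credited to another tool. The sorts were compared in 8 food-trained libraries, and the stages as contrasts in 11 dopaminergic libraries. P-values measure the spread between samples, each of 2 pooled mice. CPM values use TMM factors of all 15 libraries, and log2 CPM a prior count of 2. Where a group had at most 3 counts in every library, the fold is a lower bound against 3 counts per library. Per-kilobase levels, positions and GC content use GENCODE M21, whose symbols matched 26763 genes directly and 567 through older symbols. The replicate numbers were checked, and samples with the same number were not treated as pairs.

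The fits were tested on simulated data. In a first version, with changed genes of low and high abundance, about as many were missed as were found, which failed the criterion set for it. A version with abundant genes only, most of which were found, was then added, and the criterion was replaced by recovery of the effect size with few false calls, which both versions met. Low genes that were not called may therefore have changed.

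The 10 genes, the other lists and the tests were chosen with earlier results of these data known. All 10 genes are named in every comparison, as are up to 8 further astrocyte or reactive genes with the lowest p among those past the threshold (4 where none passed) and the 8 genes most like the mean of the 10. Predicted genes were not named, and some genes that the rule names are not reported here. Alternatives were DESeq2 1.42.0 (test and size factors), upper quartile scaling, other filters, a replicate block, a GC correction (GC content known for 86.9% and 87.3% of genes tested), a joint fit of 15 libraries and leaving out each library.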

Additional observations from a re-analysis of the deposited data

Results flagged for a closer look

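Among 30 sets of 4 samples (10 genes in 3 groups), 2 had a sample far from the others, where chance gives about 1 in 20. Gja1 was at 94.23 CPM in CRV dopaminergic replicate 4 and at 183.5 to 199.3 CPM in the other 3 samples of that group. Gfap was at 144.4 CPM in FT non-dopaminergic replicate 3 and at 230.9 to 248.1 CPM in the other 3.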

How the results depend on the processing

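No log2 fold change of the 10 genes that was called reversed in any alternative, and Slc1a3, Gja1 and Slc4a4 were called between the sorts in all 17. Sox9 lost its call in 6 alternatives, among them the replicate block (adjusted p = 0.0766), the block with GC correction (0.0732) and the fit of all 15 libraries (0.08). Between the sorts, 2534 genes were called, against 1643 with at least 10 counts in every library, 3883 by DESeq2, 775 with the replicate block and 836 with the block and GC correction. At MN against FT, 25 genes were called, against 109, 977, 0 and 1 in the same order, 102 without FT dopaminergic replicate 3 and MN replicate 2 together (chosen after seeing the data), and 5 to 78 without 1 library. DESeq2 called 1 of the 10 genes there. At CRV against FT, 0 genes were called (819 at an unadjusted p under 0.05) and 140 by DESeq2. At CRV against MN, 34 were called, against 22 with upper quartile scaling, 69 with at least 10 counts, 793 by DESeq2, 2 with the block, 2 with the block and GC correction, 15 in the fit of all 15 libraries, and 6 to 73 without 1 library. The causes were not tested. Same-numbered samples deviated together with r of 0.035 to 0.087 between the sorts and -0.075 to 0.033 between stages, so they were not treated as pairs. Whether they come from the same mice is not stated in the labels. The best match had the same number for 3 of 4 non-dopaminergic samples and 1 of 10 stage pairs.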
